A study of Mus musculus with 12 samples.

Results

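The genes described here are 9 enzymes that make NAD from salvaged vitamin precursors or carry its reducing power into NADP, namely Nmrk1, Nmrk2, Nampt, Naprt, Nmnat1, Nmnat3, Nadk, Nadk2 and Nnt. They are 9 of the 51826 entries of a gene count table and were selected by symbol, and each symbol has 1 entry. Nmrk2 was chosen because its level was low in the atria of CUG960 mice, so its atrial levels, and the chamber comparisons that use them, are a description without a test. The other 8 genes were chosen for their place in the pathway.

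NAD is a redox carrier and is also consumed as a substrate by sirtuins, PARPs and CD38, so cells rebuild it continuously. Nicotinamide is salvaged by NAMPT, nicotinic acid by NAPRT, and nicotinamide riboside by the kinases NMRK1 and NMRK2, and the resulting mononucleotides are turned into NAD by the NMNAT enzymes. NMRK2 is known as the muscle form of the riboside kinase, and its level in heart is known to respond to energy stress. NAD kinases then make NADP, and NNT, in the inner mitochondrial membrane, passes hydride from NADH to NADP.

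The study modelled the heart disease of myotonic dystrophy type 1 in mice by RNA-Seq of atria and ventricles. CUG960 +dox mice were homozygous for the TREDT960I transgene, which carries 960 interrupted CUG repeats in exons of human DMPK, and hemizygous for MHCrtTA. MHCrtTA +dox controls carried the transactivator alone, so both groups shared rtTA and doxycycline. The αMHC promoter restricts the transactivator, and through it the repeat RNA, to cardiomyocytes. All mice were FVB females aged 10 weeks that had been fed chow with 2 g/kg doxycycline from postnatal day 1. There were 3 mice per genotype (controls V327, V333 and V334, and CUG960 mice V119, V120 and V123), each with 1 atrial and 1 ventricular library, so the 12 libraries are 4 groups of 3. Libraries held between 116127966 and 160676189 counts. At that depth the least abundant value of any of the 9 genes was 121 counts. The SD between mice was larger than the counting error in all 4 groups for 7 of the 9 genes, in 3 of 4 for Nmnat1 and in 2 of 4 for Nmrk1, whose SD was between 3.46% and 5.23% of the mean beside counting errors between 4.15% and 5.06%.

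The labels for chamber held in every library. Myl7, the atrial myosin light chain, was between 2521 and 3308 CPM (counts per 1000000 scaled counts) in atria and at most 55.9 CPM in ventricles. That highest ventricular value was in CUG960 mouse V123, and the other 5 ventricular libraries were at 19.3 CPM or lower. Myl2, the ventricular light chain, was at least 8504 CPM in ventricles and between 8.82 and 11.7 CPM in 5 atrial libraries, but 33.5 CPM in the atria of control V327. Myh6, the gene whose promoter drives the transactivator, was at least 22808 CPM in all 12 libraries. Endogenous mouse Dmpk was between 432 and 501 CPM in atria and between 542 and 757 CPM in ventricles. It does not check the transgene, which is human sequence.

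Nmrk2 lies on the reverse strand of chromosome 10 (GRCm38, chr10:81198170-81202051) and has a single annotated transcript of 1854 bases in GENCODE M21. Its start is given at 2 positions 14 bases apart, at 81202037 by RefSeq and at 81202051 by GENCODE. Nmrk1 lies on the forward strand of chromosome 19 (chr19:18631950-18652428) and has 6 transcripts. The 2 kinase genes are set side by side because one was the most variable of the 9 across libraries and the other the least. The bases before the first start of each are shown 5′ to 3′ on the gene's own strand (RefSeq, GRCm38.p6), 236 bases for Nmrk2 at chr10:81202052-81202287 and 184 bases for Nmrk1 at chr19:18631766-18631949. Capitals mark matches to TATAAA, the core of a TATA box, and to CANNTG, the E-box bound by basic helix-loop-helix factors, searched on both strands.
Nmrk2: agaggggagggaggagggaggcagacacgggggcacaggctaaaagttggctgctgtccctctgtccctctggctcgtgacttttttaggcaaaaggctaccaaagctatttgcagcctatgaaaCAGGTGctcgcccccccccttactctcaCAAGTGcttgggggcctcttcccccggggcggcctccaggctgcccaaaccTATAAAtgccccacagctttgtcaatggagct
Nmrk1: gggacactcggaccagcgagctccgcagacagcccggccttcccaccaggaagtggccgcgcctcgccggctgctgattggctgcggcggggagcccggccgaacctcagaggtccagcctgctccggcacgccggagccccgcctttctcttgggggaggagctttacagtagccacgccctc
The Nmrk2 sequence holds TATAAA with its first base 46 bases before the RefSeq start and 32 bases before the GENCODE start. It also holds the E-boxes CAGGTG and CAAGTG, at 125 and 97 bases before the RefSeq start. The search covered the whole RefSeq window of each gene, from 250 bases before to 50 after its RefSeq start, and the bases shown are the part of it before the first start. The Nmrk1 window held neither motif. Of 32851 mouse promoter windows of that full length in RefSeq, 13.6% held TATAAA and 72.3% held CANNTG. A window was given for 6 of the 9 genes, and among these TATAAA occurred only in that of Nmrk2. A match is a description of letters and not a site shown to be bound.

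Nmrk2 was the most variable of the 9 genes. In atria its level was 22.8, 8.55 and 11.4 CPM in control mice V327, V333 and V334, and 1.54, 2.15 and 2.79 CPM in CUG960 mice V119, V120 and V123. Every control was above every CUG960 mouse, and V327 was the highest. The fitted log2 fold change of CUG960 against control was −2.72 ± 0.38 (SE), or 6.59-fold lower. Without V327 it was −2.21. Counts behind these values ran from 221 to 3484. In bulk tissue, fewer cells that express a gene and less RNA per cell cannot be told apart.

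In ventricles, whose libraries took no part in the choice of the gene, Nmrk2 did not pass the test. Its level was 7.41, 1.67 and 1.81 CPM in the controls and 0.830, 2.07 and 1.295 CPM in the CUG960 mice. The ranges overlapped, since CUG960 mouse V120 was above 2 of the 3 controls. The log2 fold change was −1.38 (95% confidence interval −2.47 to −0.28). That interval is a normal approximation and is narrower than the few degrees of freedom of the test allow. The adjusted P = 0.157 came from edgeR's quasi-likelihood test over 16909 genes. Control V327 carried most of that difference: without it the log2 fold change was −0.32 and the adjusted P = 0.666 in the same test.

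V327 was thus the highest library for Nmrk2 in both chambers. Within a mouse, Nmrk2 was higher in atria than in ventricles in all 6 animals. The ratio of atria to ventricles was 3.08, 5.11 and 6.28 in controls V327, V333 and V334, and 1.86, 1.04 and 2.15 in CUG960 mice V119, V120 and V123. All 3 controls had a larger ratio than any CUG960 mouse.

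**Figure D1:**
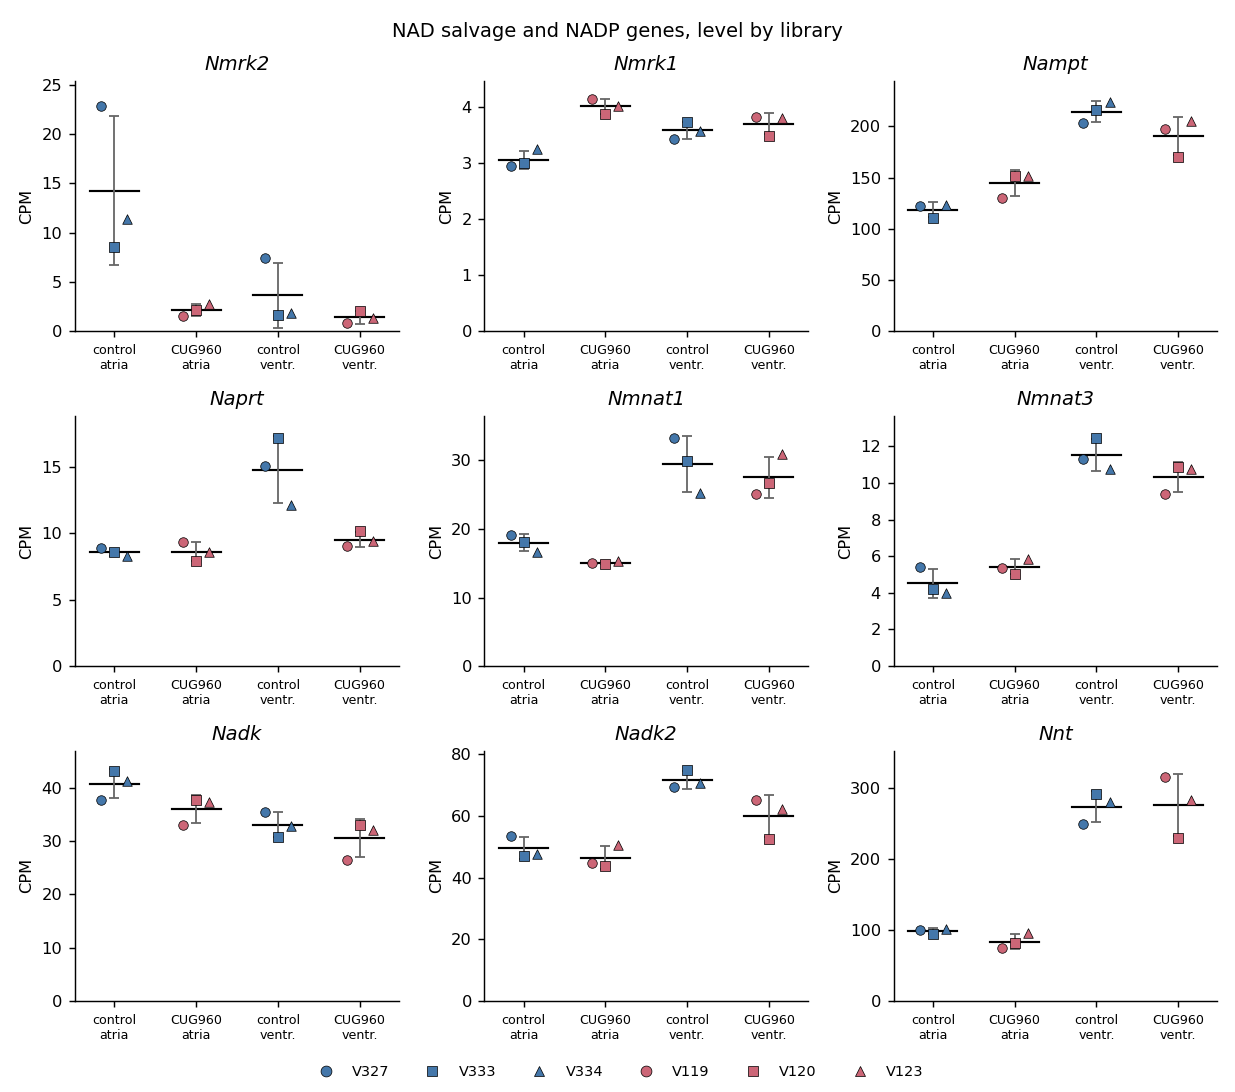
Level in CPM (y axes, from 0) of each of the 9 genes in the 12 libraries, by chamber and genotype. Points are single libraries with 1 symbol per mouse, horizontal lines are means and error bars are SD (n = 3). Nmrk2 is above 8 CPM only in the 3 control atria, and the circle for V327 is its highest point in both chambers.

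Nmrk1, the other riboside kinase, is expressed in most tissues and was nearly flat. Its highest level over the 12 libraries was 1.41 times its lowest, against 27.5 times for Nmrk2 and between 1.62 and 4.22 times for the other 7 genes. In atria it was 2.94, 2.99 and 3.24 CPM in controls and 4.14, 3.86 and 4.01 CPM in CUG960 mice, so every CUG960 mouse lay above every control. Groups were apart in one direction or the other for 35.7% of the 17650 genes tested in atria. The difference was small, with a log2 fold change of 0.39 ± 0.11 (SE) and an adjusted P = 0.0429 in edgeR, and it did not reach the fold limit of 1.5 used for calls. In ventricles Nmrk1 was 3.58 ± 0.15 CPM in controls and 3.70 ± 0.19 CPM in CUG960 mice (SD, n = 3), with overlapping ranges. Within mice it ran opposite ways by genotype, higher in ventricles than in atria in 3 of 3 controls and lower in 3 of 3 CUG960 mice. The interaction of chamber and genotype for Nmrk1 had a log2 difference of −0.34 and did not pass, with an adjusted P = 0.338 in edgeR.

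Levels of the 2 kinases can be compared once they are divided by exon length. Per kilobase, the ratio of Nmrk2 to Nmrk1 in atria was 15.4, 5.68 and 6.99 in controls and 0.742, 1.11 and 1.38 in CUG960 mice. By the longest transcript of each gene, which shortens Nmrk1 from 3689 to 1940 bases and leaves Nmrk2 as it is, these ratios were 8.12, 2.99 and 3.67 in controls and 0.390, 0.583 and 0.728 in CUG960 mice. Nmrk2 was therefore the more abundant kinase in every control atrium by both lengths. In CUG960 atria the order depended on the length used, Nmrk2 being above Nmrk1 in 2 of 3 mice by the union of exons and in 0 of 3 by the longest transcript. In ventricles the ratio by the union of exons was 4.31, 0.891 and 1.01 in controls and 0.432, 1.18 and 0.679 in CUG960 mice, which overlapped. By the longest transcript it was 2.26, 0.469 and 0.531 in controls and 0.227, 0.621 and 0.357 in CUG960 mice. The ventricular log2 ratio was lower by 1.16 in CUG960 mice than in controls (−0.51 ± 0.73 against 0.65 ± 1.26, SD, n = 3 each), with an exact two-sided permutation p = 0.3, where 0.1 is the smallest that 3 mice against 3 allow. With 1 mouse left out at a time this difference lay between −1.57 and −0.43, and V327 had the highest ratio of the 6.

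Among the remaining members the changes in CUG960 atria were small. A gene was called at an adjusted P value below 0.05 with a change of 1.5-fold or more. By that rule 0 of the 8 genes other than Nmrk2 were called in atria, against a background of 5.49% of 17650 genes tested, and DESeq2 also called 0. Without the fold limit 3 of the 8 were called (Nmrk1, Nampt and Nmnat1), against a background of 14.6%, and 5 of the 8 had an unadjusted value under 0.05, where 30.2% of all genes tested had one. The median log2 fold change of all 9 genes in atria was −0.09, beside −0.01 over all genes tested.

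Nampt, the rate-limiting enzyme of nicotinamide salvage, was 122.5, 110.2 and 123.5 CPM in control atria and 130, 152 and 151 CPM in CUG960 atria. The groups did not overlap, the lowest CUG960 mouse being just above the highest control. Its log2 fold change was 0.28 ± 0.08 (SE, adjusted P = 0.0489 in edgeR), below the fold limit. In ventricles it had the opposite sign, −0.17, with overlapping ranges and an adjusted P = 0.276 in edgeR.

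Nmnat1, the nuclear enzyme that turns mononucleotide into NAD, was 19.2, 18.1 and 16.7 CPM in control atria and 15.1, 14.9 and 15.3 CPM in CUG960 atria. The groups did not overlap and the 3 CUG960 mice were close to each other. Its log2 fold change was −0.25 ± 0.07 (SE, adjusted P = 0.0482 in edgeR), again below the fold limit, and −0.09 in ventricles. Nmnat3, the mitochondrial form, had a log2 fold change of 0.26 in atria and of −0.15 in ventricles, and its groups overlapped in both chambers.

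Naprt, which salvages nicotinic acid, was the only member called in ventricles, 1 of 9 against a background of 4.75% of 16909 genes. Its ventricular level was 15.1, 17.1 and 12.1 CPM in controls and 9.02, 10.1 and 9.41 CPM in CUG960 mice. All CUG960 mice were below all controls. The log2 fold change was −0.63 ± 0.13 (SE, adjusted P = 0.0167 in edgeR), a 1.55-fold fall. That is close to the fold limit of 1.5, and the call was lost when any 1 of V119, V123, V327 or V333 was left out, with log2 fold changes between −0.63 and −0.51. In atria Naprt was 8.58 ± 0.27 CPM in controls and 8.63 ± 0.72 CPM in CUG960 mice (SD, n = 3). The 3′ part of Eef1d, which encodes a translation elongation factor subunit, overlaps Naprt on the same strand. Eef1d was 162 ± 17.1 CPM in control ventricles and 156 ± 10.5 CPM in CUG960 ventricles, with a log2 fold change of −0.06.

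The enzymes of the NADP branch differed little with genotype. Nadk, the cytosolic NAD kinase, had a log2 fold change of −0.18 in atria and of −0.11 in ventricles, and Nadk2, its mitochondrial counterpart, −0.09 and −0.25. For Nnt it was −0.23 in atria and 0.02 in ventricles. None of these 6 values passed the test in edgeR, and their adjusted P values were between 0.117 and 0.951. In ventricles Nadk2 was 69.2, 74.9 and 70.5 CPM in controls and 65.2, 52.4 and 62.1 CPM in CUG960 mice, the only other member besides Naprt whose ventricular groups did not overlap, where 31.2% of the 16909 genes tested in ventricles had groups apart. The median log2 fold change of the 9 genes in ventricles was −0.15, beside −0.01 over all genes tested.

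**Figure D2:**
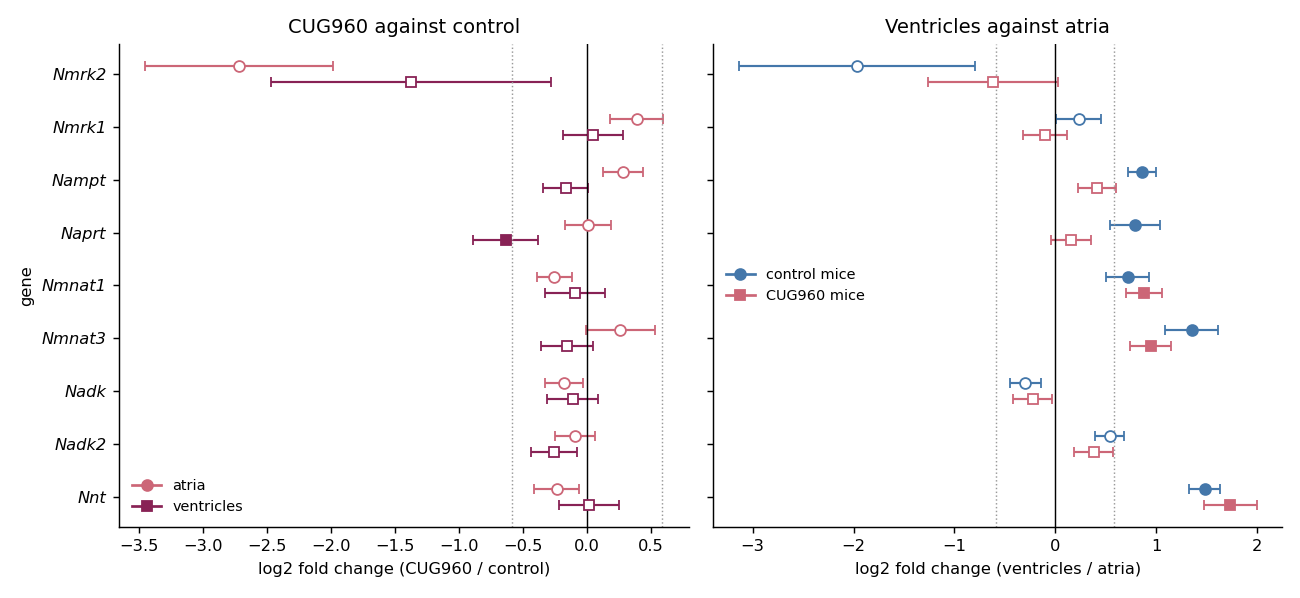
Log2 fold changes of the 9 genes (x axes) for CUG960 against control in each chamber on the left and ventricles against atria in each genotype on the right, with 95% confidence intervals. The intervals are normal approximations, narrower than the few degrees of freedom of the test allow, so an interval that excludes 0 is not a pass of the test. Filled symbols mark calls (adjusted P value under 0.05 and at least 1.5-fold, dotted lines) and open symbols the rest, with Nmrk2 drawn open where it is a description. Naprt in ventricles is the only filled symbol on the left, and all filled symbols on the right are higher in ventricles.

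More of these genes were called between chambers than between genotypes, as was true of all genes tested. In control mice 5 of the 8 genes other than Nmrk2 (Nampt, Naprt, Nmnat1, Nmnat3 and Nnt) were called between chambers, where 34.9% of 17451 genes were called in either direction. All 5 were higher in ventricles, a direction that held for 16.6% of genes. In CUG960 mice 3 of the 8 (Nmnat1, Nmnat3 and Nnt) were called, all higher in ventricles, where 33.6% of 17559 genes were called and 16.4% were called higher in ventricles. The median log2 difference of the 9 genes was 0.72 in controls and 0.38 in CUG960 mice, beside −0.03 and −0.01 over all genes tested.

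Nnt had the largest ventricular excess of the 9. It was between 74.9 and 101 CPM in the 6 atrial libraries and between 229 and 316 CPM in the 6 ventricular libraries, and these did not overlap. The log2 difference between chambers was 1.48 ± 0.08 in controls and 1.74 ± 0.13 in CUG960 mice (SE, adjusted P = 1.81e-06 and 6.54e-06 in edgeR). Nmnat3 was between 3.97 and 5.85 CPM in atria and between 9.40 and 12.5 CPM in ventricles, with log2 differences of 1.35 and 0.94 (adjusted P = 6.01e-05 and 7.29e-05 in edgeR). Both encode mitochondrial proteins. Of 8 cardiomyocyte markers, 4 were called higher in control ventricles (Actc1, Tnnt2, Pln and Mybpc3), while Myh6, the most abundant, had a log2 difference of −0.12, Ryr2 of 0.06 and Ttn of 0.31, and none of these 3 passed. The summed level of the 8 was between 42110 and 46134 CPM in atria and between 56748 and 63776 CPM in ventricles. Of 8 fibroblast markers 6 were called lower in ventricles in controls and 3 in CUG960 mice, Dcn being the most abundant. Their summed levels were between 1888 and 2625 CPM in atria and between 1342 and 1556 CPM in ventricles. Over all genes tested, 3194 of 17451 were called lower in ventricles in controls and 3021 of 17559 in CUG960 mice. Of 8 leukocyte markers 5 were called lower in ventricles in each genotype, with summed levels between 157 and 242 CPM in atria and between 64.3 and 92.8 CPM in ventricles, Csf1r being the most abundant. Of 7 endothelial markers in controls 2 were called in each direction, and of 7 skeletal muscle markers 3. The part of cell composition in the chamber differences was not tested.

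Nampt and Naprt had a smaller chamber difference in CUG960 mice than in controls. For Nampt the log2 difference between ventricles and atria was 0.86 in controls and 0.41 in CUG960 mice, and for Naprt it was 0.79 and 0.16. Their interactions of chamber and genotype were −0.45 and −0.64 on the log2 scale, with adjusted P = 0.114 and 0.0862 in edgeR, so neither passed. In all, 0 of the 8 genes other than Nmrk2 were called for the interaction, against 1.38% of 18327 genes, while 4 of the 8 had an unadjusted value under 0.05 in edgeR, as had 12.3% of all genes tested. DESeq2 called 2 of them, Nampt and Naprt.

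Per kilobase of exon, taken as the union over transcripts, the order of the levels also shifted with chamber. In control atria Nampt was highest at 23.5 ± 1.47 CPM per kb, followed by Nnt (14.0 ± 0.54), Nadk (10.9 ± 0.72), Nadk2 (9.66 ± 0.69), Nmrk2 (7.68 ± 4.07), Nmnat1 (5.92 ± 0.41), Naprt (3.66 ± 0.12), Nmnat3 (0.905 ± 0.157) and Nmrk1 (0.829 ± 0.043) (SD, n = 3). Neighbours whose ranges overlapped in that order were Nadk and Nadk2, Nadk2 and Nmrk2, Nmrk2 and Nmnat1, and Nmnat3 and Nmrk1. In control ventricles Nampt (42.4 ± 2.06) and Nnt (38.8 ± 3.07) led with overlapping ranges, and Nmrk2 (1.96 ± 1.77) and Nmrk1 (0.969 ± 0.042) were the lowest and also overlapped. In CUG960 atria Nmrk2 had moved down to 1.17 ± 0.34 CPM per kb, beside Nmrk1 (1.09 ± 0.04) and Nmnat3 (1.08 ± 0.08). The order rested in part on the length used. By longest transcript, a division added after these values were seen, Nmrk2 was the lowest of the 9 in CUG960 atria, at 1.17 ± 0.34 CPM per kb against 2.06 ± 0.07 for Nmrk1 and 2.50 ± 0.19 for Nmnat3. By that length Nnt led in control atria (28.4 ± 1.09, with Nampt at 26.2 ± 1.64), where their ranges overlapped, and in control ventricles (78.9 ± 6.23, with Nampt at 47.3 ± 2.31), where they did not.

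Nmrk2 sits in a crowded locus. The antisense RNA Atcayos (chr10:81194609-81210877, forward strand) spans the whole of Nmrk2 and was called higher in CUG960 mice in both chambers. It was 62.4, 42.4 and 46.2 CPM in control atria and 116.1, 119.2 and 102.0 CPM in CUG960 atria. In ventricles it was 36.2, 76.0 and 53.9 CPM in controls and 137, 127 and 135 CPM in CUG960 mice. The genotypes did not overlap in either chamber, and the log2 fold change was 1.16 ± 0.14 in atria and 1.27 ± 0.21 in ventricles (SE, adjusted P = 0.00188 and 0.00735 in edgeR). The 2 transcripts thus differed in opposite directions in atria. The library preparation kept strand, but the strand setting used in counting is not given in the sources used here, so reads of the 2 genes may not have been fully separated.

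Of the 3 nearest listed genes on each side, Dapk3, Eef2, Zfr2 and Matk passed the test in neither chamber. Atcay, 2456 bases beyond the start of Nmrk2, encodes the neuronal protein caytaxin and was scarce, at 0.314 ± 0.041 CPM in control ventricles and 0.832 ± 0.272 CPM in CUG960 ventricles (SD, n = 3). It was called higher in ventricles, with a log2 fold change of 1.41 (adjusted P = 0.0230 in edgeR), and Atcayos overlaps it too. In atria its log2 fold change was 0.35 and did not pass. The remaining neighbour, 4930442H23Rik, lies on the lower side between Dapk3 and Eef2 and was too low to be tested. Nampt and Nmnat3 also share sequence with other genes on their own strand, the lincRNA Gdap10 at no more than 0.523 CPM and the pseudogene Gm28530 at no more than 0.132 CPM in any library.

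**Figure D3:**
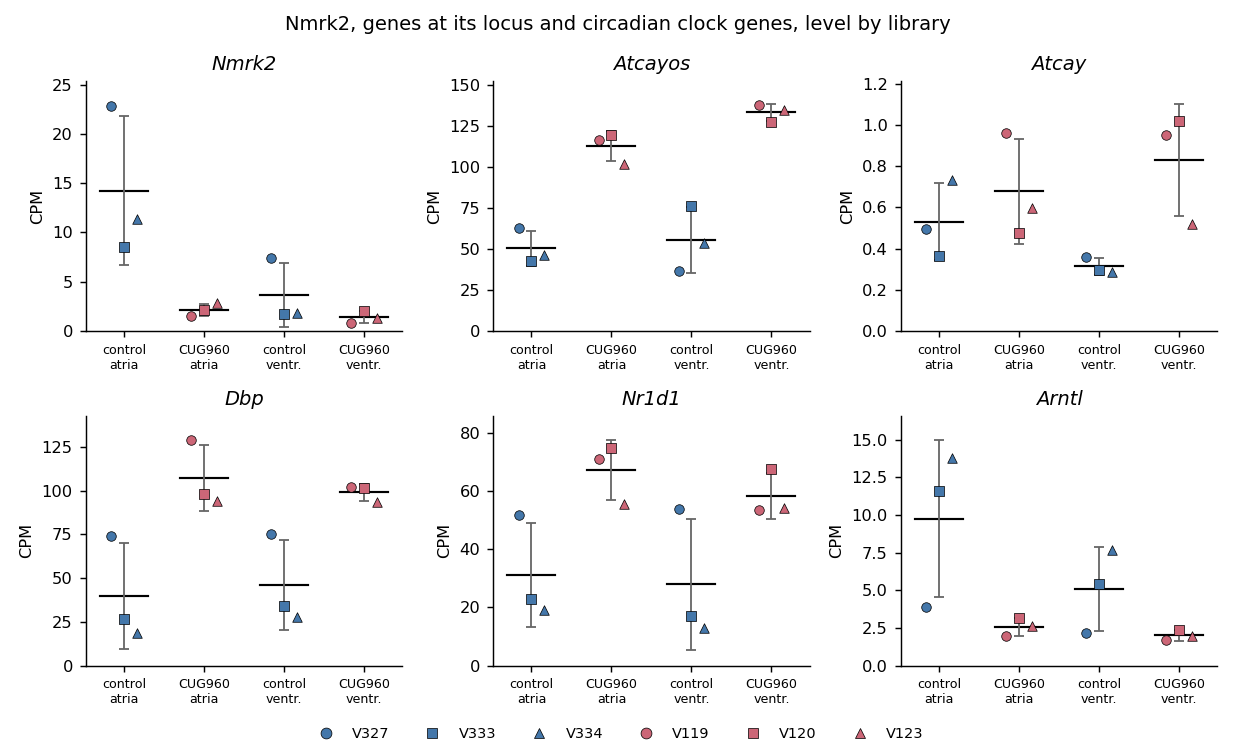
Level in CPM (y axes, from 0) of Nmrk2, of Atcayos and Atcay at the same locus, and of the clock genes Dbp, Nr1d1 and Arntl in the 12 libraries, with means and SD (n = 3) and 1 symbol per mouse. Atcayos is higher in all CUG960 libraries than in any control of the same chamber, and control V327 (circle) lies with or near the CUG960 mice for the 3 clock genes and highest for Nmrk2.

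Mouse V327 also stood apart from V333 and V334 in the atrial levels of Dbp, Arntl and Nr1d1, genes of the circadian clock, whose levels vary over the day. In atria Dbp, a clock output factor, was 74.3 CPM in V327 against 26.7 and 18.4 CPM in the other controls and between 94.3 and 129 CPM in CUG960 mice. Arntl, the clock activator that peaks opposite to Dbp, was 3.86 CPM in V327, 11.6 and 13.8 CPM in the other controls and between 1.95 and 3.14 CPM in CUG960 mice. Nr1d1, a repressor of Arntl, was 51.8 CPM in V327 against 22.8 and 19.1 CPM, with CUG960 mice between 55.6 and 75.0 CPM. By these genes V327 lay near the CUG960 mice, while by Nmrk2 it lay farthest from them. The other clock genes of the list below varied less among controls. The SE of the log2 chamber difference in controls was 0.53 for Dbp, 0.52 for Arntl and 0.56 for Nr1d1. For the rest of the list it lay between 0.07 (Hlf) and 0.21 (Nr1d2).

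Of 13 clock genes tested, 2 were called in atria, both lower (Arntl, log2 fold change −1.93 with adjusted P = 0.0205, and Cry1, −0.63 with adjusted P = 0.0367, in edgeR). In ventricles 2 were called, both higher (Dbp, 1.12 with adjusted P = 0.0480, and Npas2, a partner of the clock activator, 1.57 with adjusted P = 0.00500, in edgeR). Over all genes tested 5.49% were called in atria and 4.75% in ventricles. Of the 13, 9 had an unadjusted value under 0.05 in atria and 10 in ventricles in edgeR, against 30.2% and 25.7% of all genes. Without the fold limit 3 passed higher and 2 lower in atria. The call of Arntl was lost without any 1 of V119, V120, V123 or V333, that of Cry1 without V119, V120, V333 or V334, and that of Dbp without any mouse other than V327 and in DESeq2. The median log2 fold change of the 13 was 0.30 in both chambers. Tef was the most abundant of the list, between 159 and 258 CPM. Collection times are not given in the labels, and the part of clock phase in the Nmrk2 values was not tested.

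Genes were then ranked by how closely their pattern followed that of Nmrk2, as the root mean square difference of centred log2 values among 13111 genes that averaged 1 CPM or more. The ranking is a description, since it uses the same libraries. Over all 12 libraries the nearest were 2610028H24Rik (0.45), 2010001K21Rik (0.69), Rabgap1l (0.76), Ubxn10 (0.81) and Gm7694 (0.81), where the spread of Nmrk2 itself by the same measure was 1.37. Rabgap1l, which encodes a Rab GTPase activating protein, was between 172 and 183 CPM in control atria and between 60.5 and 70.6 CPM in CUG960 atria, and between 68.8 and 72.5 CPM and between 22.5 and 23.5 CPM in the ventricles. It separated the genotypes in both chambers without the high value of V327. The nearest gene, 2610028H24Rik, was 4.56, 1.56 and 2.61 CPM in control atria and 0.168, 0.379 and 0.426 CPM in CUG960 atria, and so also had V327 highest.

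Within the 6 ventricular libraries the nearest genes were different: Txnip (0.27), Ucp3 (0.35), Angptl4 (0.46), Pdk4 (0.49) and Itgb3 (0.51), against a spread of 0.93 for Nmrk2. Pdk4, a kinase that restrains pyruvate oxidation, was 999.9, 239 and 390 CPM in control ventricles and 86.6, 192 and 101 CPM in CUG960 ventricles. Angptl4, an inhibitor of lipoprotein lipase, was 39.9, 4.30 and 5.17 CPM in controls and 1.64, 6.64 and 3.47 CPM in CUG960 mice. Ucp3, a mitochondrial carrier, was 66.3, 16.4 and 16.2 CPM in controls and 15.6, 24.8 and 12.4 CPM in CUG960 mice. Txnip, a thioredoxin-binding regulator of glucose uptake, was 759, 197 and 298 CPM in controls and 145, 213 and 187 CPM in CUG960 mice. In all 4 genes V327 was the highest of the 6 libraries and V120 the highest of the CUG960 mice, as for Nmrk2. That match follows from the choice, since the genes were picked for following Nmrk2 in these libraries. Itgb3, an integrin subunit, was 4.53, 1.32 and 2.60 CPM in controls and 1.53, 1.85 and 1.55 CPM in CUG960 mice.

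Of the 5 genes, all but Itgb3 were highest in V327 among the atrial libraries as well. Atrial Itgb3 was highest in V334, at 6.33 CPM, with V123 at 5.45 CPM and V327 at 5.34 CPM. Pdk4 was 667 CPM in the atria of V327 and between 108 and 208 CPM in the other 5, and Angptl4 was 12.5 CPM against values between 1.13 and 7.43 CPM. Among CUG960 atria those 4 were highest in V120, whereas Nmrk2 was highest in V123 (2.79 CPM, with V120 at 2.15 CPM). Pdk4, Angptl4 and Ucp3 are known to rise with fasting and fatty acid supply. Feeding state is not given in the labels, and its part in the Nmrk2 values was not tested.

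**Figure D4:**
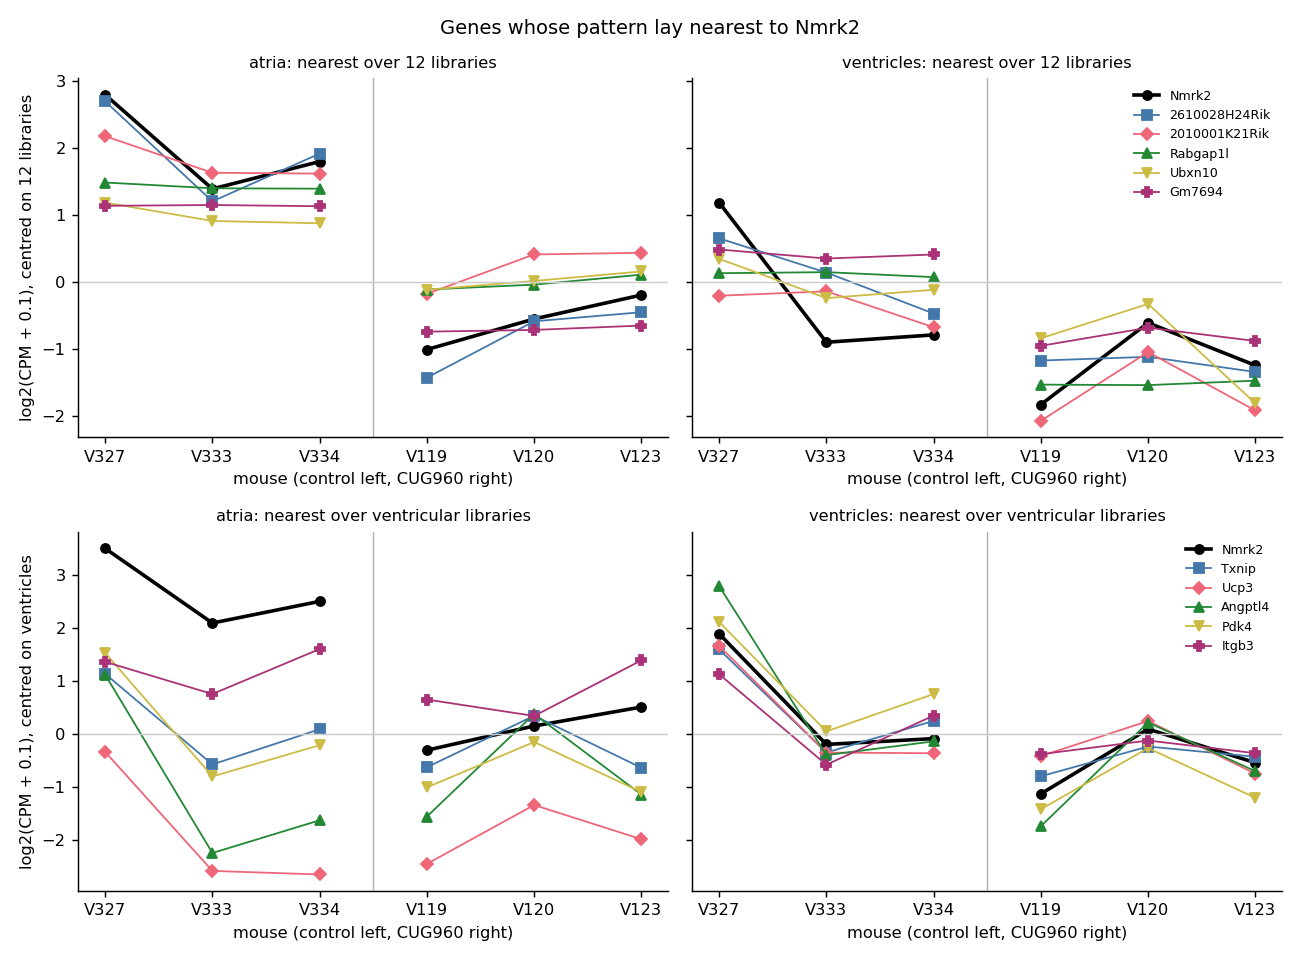
Centred log2(CPM + 0.1) (y axes) of Nmrk2 and the 5 genes nearest to it over all 12 libraries (top, centred on the 12 libraries) and over the 6 ventricular libraries (bottom, centred on the ventricles), by mouse in atria (left) and ventricles (right). Lines join mice of 1 genotype. In the lower right panel all 6 genes have V327 as their highest point, and in the upper panels the genes fall between control and CUG960 atria.

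The other genes of NAD metabolism were taken as lists, to be read against the 5.49% of all genes called in atria and the 4.75% called in ventricles. Of 20 genes of NAD synthesis and precursor handling outside the 9 tested in atria, 0 were called in edgeR and 0 in DESeq2, although 5 had an unadjusted value under 0.05 in edgeR. Over all genes tested 30.2% had such a value in atria and 25.7% in ventricles. In ventricles 2 of 18 were called. Nt5e, the ectoenzyme that converts extracellular mononucleotides into ribosides, was 11.5, 11.4 and 11.6 CPM in control ventricles and 18.6, 17.3 and 16.1 CPM in CUG960 ventricles (log2 fold change 0.60, adjusted P = 0.00400 in edgeR). Aox1, which oxidizes nicotinamide derivatives, fell from 24.2, 25.2 and 28.9 CPM to 15.5, 17.8 and 16.5 CPM (−0.65, adjusted P = 0.00427 in edgeR). Nt5e dropped below the fold limit without V119 (0.54) and Aox1 without V334 (−0.57). Afmid passed higher in edgeR in both chambers, below the fold limit, at 0.48 in atria (adjusted P = 0.0388) and 0.58 in ventricles (adjusted P = 0.0218). Slc25a51, the mitochondrial NAD carrier and the most abundant gene of the list, had log2 fold changes of 0.06 and −0.02. The list's medians were 0.01 in atria and −0.20 in ventricles.

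The next list holds 28 genes taken as NAD consumers, and use of NAD by each product was not tested. Of the 28, 0 were called in atria in edgeR and in DESeq2 (5 had an unadjusted value under 0.05 in edgeR) and 1 was called in ventricles. That was Art4, a mono-ADP-ribosyltransferase family member, at 1.27, 1.01 and 1.19 CPM in controls and 1.84, 1.84 and 1.85 CPM in CUG960 mice (log2 fold change 0.68, adjusted P = 0.0357 in edgeR), a call that was lost when any 1 mouse was left out. Sirt1, Parp1 and Cd38 passed in neither chamber, with log2 fold changes in atria and ventricles of −0.18 and −0.23 for Sirt1, 0.15 and 0.20 for Parp1, and −0.16 and −0.40 for Cd38. Parp4 (−0.56, adjusted P = 0.00178) and Parp3 (−0.42, adjusted P = 0.0166) passed lower in atria in edgeR, below the fold limit, as did Art5 in ventricles (−0.44, adjusted P = 0.0370). In ventricles 11 of the 28 had an unadjusted value under 0.05 in edgeR, against 25.7% of all genes. Art3, the most abundant, was between 200 and 393 CPM in all libraries, with log2 fold changes of 0.10 and 0.0038.

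The 14 enzymes that make NADPH, in the pentose phosphate, malate, isocitrate, glutamate and folate reactions, held 1 call per chamber. Of the 14, 10 had an unadjusted value under 0.05 in atria and 7 in ventricles in edgeR, against 30.2% and 25.7% of all genes. Without the fold limit 2 passed higher and 1 lower in each chamber. The lower gene was H6pd in both, at −0.55 in atria (adjusted P = 0.00200 in edgeR) and −0.44 in ventricles (adjusted P = 0.0435 in edgeR). Aldh1l2, the mitochondrial formyltetrahydrofolate dehydrogenase, rose from 33.0, 32.6 and 36.2 CPM to 84.3, 73.6 and 79.2 CPM in atria (log2 fold change 1.22 ± 0.07 SE, adjusted P = 7.26e-05 in edgeR). In ventricles its log2 fold change was 0.55 and did not pass. Mthfd2, another mitochondrial folate enzyme, was 2.77, 2.41 and 2.47 CPM in control ventricles and 3.55, 6.25 and 4.96 CPM in CUG960 ventricles (0.95 ± 0.20 SE, adjusted P = 0.0182 in edgeR), a call lost without V120 (0.74) or V333 (0.91). Idh2, the most abundant of the list, had log2 fold changes of 0.09 and 0.02.

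Of 13 genes of the NADH shuttles and lactate dehydrogenases, 1 was called in atria. In ventricles 0 were called in edgeR and in DESeq2, although 6 had an unadjusted value under 0.05 in edgeR. Slc25a13, the aspartate-glutamate carrier citrin, was 54.6, 45.9 and 44.9 CPM in control atria and 75.1, 84.9 and 83.7 CPM in CUG960 atria (log2 fold change 0.74 ± 0.09 SE, adjusted P = 0.00182 in edgeR). In ventricles its log2 fold change was 0.33, below the fold limit (adjusted P = 0.0201 in edgeR). Gpd1l passed higher in edgeR in both chambers, at 0.38 in atria (adjusted P = 0.00859) and 0.33 in ventricles (adjusted P = 0.0166). Gpd2 passed lower in atria, at −0.40 (adjusted P = 0.0239 in edgeR). Both were below the fold limit. Mdh1, the most abundant, had log2 fold changes of 0.03 and −0.02. These 4 lists taken one by one held between 0 and 2 calls per chamber, so each count rests on very few genes. Their medians lay between −0.20 and 0.05 on the log2 scale.

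**Figure D5:**
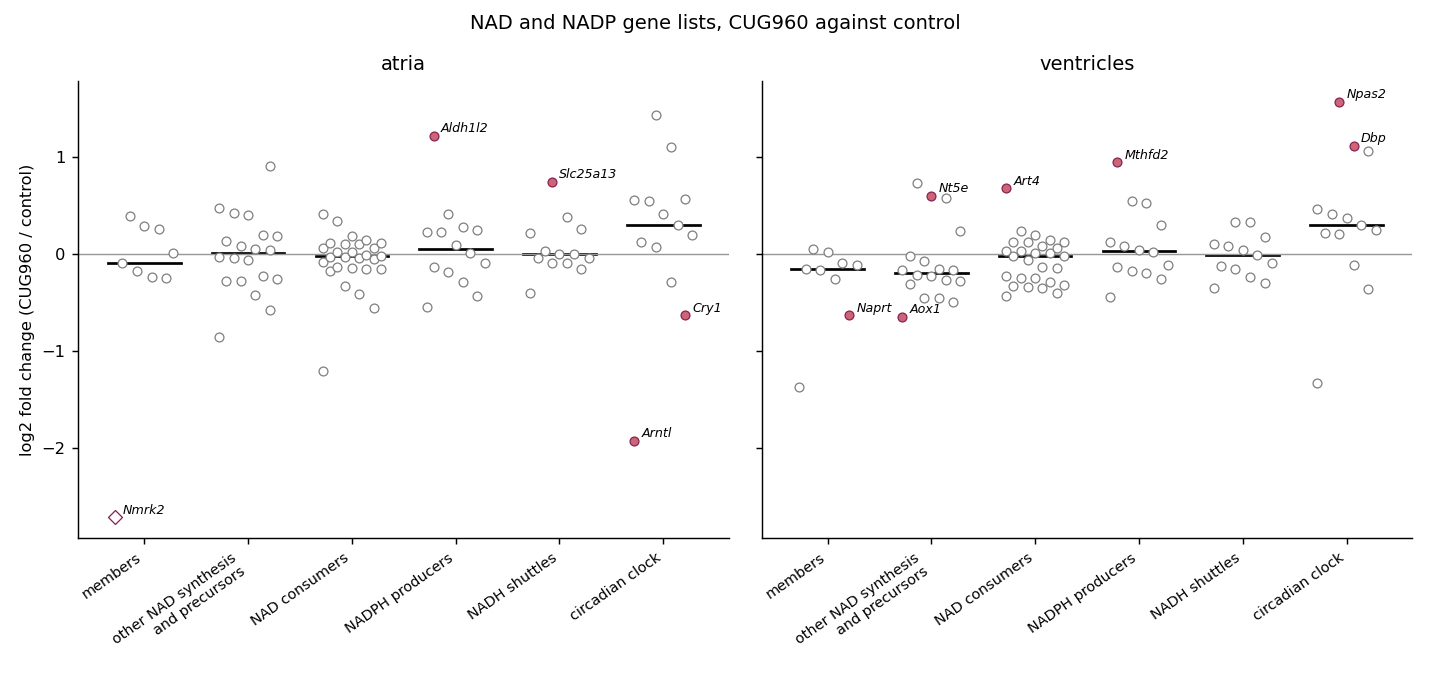
Log2 fold changes of CUG960 against control (y axis) in atria and ventricles for the tested genes of 6 lists (x axis), 1 point per gene, with the list median as a black line. Filled and named points were called (adjusted P value under 0.05 and at least 1.5-fold), and Nmrk2 in atria is an open diamond because it was chosen for that value. Nmrk2 is the lowest point in atria at −2.72.

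Markers of other cell types changed alongside Nmrk2 in atria. Their calls are to be read against the 5.49% of all genes called in atria and the 4.75% called in ventricles. Of 7 skeletal muscle markers tested, 3 were called lower in atria (Mybpc2, Tnnt3 and Tnni2), and the summed level of all 12 listed was 18.3, 20.4 and 22.4 CPM in controls and 6.23, 8.42 and 6.10 CPM in CUG960 mice. Mybpc2, fast skeletal myosin-binding protein C, made up most of that sum, and the defining myosins Myh1, Myh2 and Myh4 were each at most 0.109 CPM in every library. In ventricles the same sum was 85.6, 75.3 and 82.5 CPM in controls and 20.3, 28.4 and 28.7 CPM in CUG960 mice. Of the 7 tested there, Mybpc2 was called lower and Pvalb, a calcium buffer of fast muscle, was called higher, at 1, 4 and 0 counts in controls and 62, 27 and 22 counts in CUG960 mice (log2 fold change 4.04 ± 0.77 SE, adjusted P = 0.0122 in edgeR). The call of Pvalb was lost without V327 (3.78), and that of Tnni2 in atria without any 1 mouse other than V123 (between −1.52 and −1.31).

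Endothelial markers were called lower in 2 of 7 cases in atria (Pecam1, the most abundant, and Tek, whose log2 fold change of −0.62 lost its call without V119, V327 or V333, at between −0.57 and −0.55). Their summed level was 928, 994 and 795 CPM in control atria and 636, 754 and 681 CPM in CUG960 atria, and none was at 0. Tie1 (log2 fold change −0.56, adjusted P = 0.00464) and Cdh5 (−0.46, adjusted P = 0.0117) also passed lower in edgeR, below the fold limit. Of the 7, 5 had an unadjusted value under 0.05 in edgeR. Of 8 fibroblast markers 1, Postn, was called lower in atria. The sum was between 2245 and 2625 CPM in controls and between 1888 and 2214 CPM in CUG960 mice, which did not overlap. Col1a2 (−0.37, adjusted P = 0.0306) and Pdgfra (−0.47, adjusted P = 0.0113) also passed lower in edgeR, below the fold limit. Of the 8, 7 had an unadjusted value under 0.05 in edgeR, and their median log2 fold change was −0.33. Of 8 cardiomyocyte markers 0 were called in atria in edgeR and in DESeq2, although 5 had an unadjusted value under 0.05 in edgeR, beside 30.2% of all genes. Their summed level was 42964, 42110 and 43540 CPM in control atria and 46134, 45867 and 44745 CPM in CUG960 atria, which did not overlap, CUG960 mice being the higher. Myh6, the most abundant, and Pln passed the test below the fold limit, with log2 fold changes of 0.22 and 0.52 (adjusted P = 0.0393 and 0.0170 in edgeR), as did Ryr2 in the other direction (−0.53, adjusted P = 0.0298 in edgeR). Of 4 atrial cardiomyocyte markers 0 were called in edgeR and in DESeq2, with 2 unadjusted values under 0.05 in edgeR, and their summed level was 26821, 26707 and 25218 CPM in control atria and 21447, 22162 and 19876 CPM in CUG960 atria, which did not overlap. Nppa, the most abundant of them, had a log2 fold change of −0.42 and Myl4 of −0.29, while Myl7 was at 0.03 and Sln at −0.0046, so the lower sum did not extend to all 4. Of 3 ventricular cardiomyocyte markers tested, 1 was called lower, the transcription factor gene Hey2, at 2.18, 2.13 and 2.08 CPM in controls and 0.985, 1.43 and 1.60 CPM in CUG960 mice (log2 fold change −0.67, adjusted P = 0.0494 in edgeR), a call lost without any 1 mouse other than V123 (between −0.72 and −0.49). The summed level of these markers in atria was 56.4, 17.1 and 22.7 CPM in controls and 18.3, 21.2 and 17.9 CPM in CUG960 mice, with Myl2 the most abundant. Of 8 leukocyte, 5 adipocyte and 5 Schwann cell and neuron markers tested in atria edgeR called 0, with 1, 0 and 1 unadjusted values under 0.05, and DESeq2 called 1, 0 and 0. The part of these cell types in the atrial level of Nmrk2 was not tested.

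In ventricles, beside the fall of Naprt, 2 of 5 adipocyte markers were called lower (Cfd, the most abundant, and Plin1), where 4.75% of all genes tested were called. The summed level of the 6 listed was 7.12, 6.19 and 7.56 CPM in control ventricles and 1.73, 0.964 and 3.60 CPM in CUG960 ventricles. Of 8 cardiomyocyte markers 1, Ryr2, was called lower, and of 4 atrial markers 1, Nppa, was called higher. The call of Ryr2 was lost without V120, V327 or V334 (between −0.63 and −0.56), and that of Nppa without V120, V123, V327 or V333 (between 0.93 and 1.31). Of 4 ventricular markers edgeR and DESeq2 called 0, with 2 unadjusted values under 0.05 in edgeR. The 7 endothelial markers summed to 893, 732 and 841 CPM in control ventricles and 624, 596 and 635 CPM in CUG960 ventricles, which did not overlap. Pecam1, the most abundant of them (log2 fold change −0.53, adjusted P = 0.00179), Tek (−0.45, adjusted P = 0.00857) and Cdh5 (−0.42, adjusted P = 0.0218) passed in edgeR below the fold limit. Among 8 fibroblast, 7 endothelial and 8 leukocyte markers edgeR called 0 in ventricles, with 2, 6 and 1 unadjusted values under 0.05 (25.7% over all genes), and DESeq2 called 0, 0 and 1. The part of cell composition in the ventricular level of Naprt was not tested.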

How the data were processed

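RNA-Seq was done on poly(A)-selected RNA of atria and ventricles from 3 CUG960 +dox mice and 3 MHCrtTA +dox controls. The authors aligned reads to GRCm38 (mm10), estimated expected counts per gene with RSEM 1.3.1 and deposited them unscaled and unfiltered, as whole numbers, in a table of 51826 entries. Each contrast was fitted on the whole table with edgeR 4.0.16 (R 4.3.3) after filterByExpr and TMM scaling, by glmQLFTest with Benjamini-Hochberg adjustment. Calls were made at an adjusted P value below 0.05 with a change of 1.5-fold or more (for the interaction, at any fold). Levels are CPM with TMM over all 12 libraries and, per kilobase, divided by the union of GENCODE M21 exons. The steps were tested on simulated data. Alternatives were DESeq2 1.42.0, RLE and upper-quartile scaling, no filter or at least 10 counts in every library, a joint fit, other fold limits, length scalings of the kinase ratio, fits blocked by mouse, and fits without 1 mouse at a time. Each mouse gave 1 library per chamber, so the mouse pairs chambers but not genotypes; deviations of its 2 libraries from their group means correlated across genes at r between 0.05 and 0.28.

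Named genes are the 9 members, the label checks Dmpk and Myh6, list genes called in a genotype contrast and the most abundant of each list, the 5 genes nearest to Nmrk2 in pattern over all and over ventricular libraries, and the 3 nearest genes on each side of Nmrk2. Not every gene under this rule is reported here. Members, lists and tests were chosen with earlier results of these data known. Outside the rule, Myl7, Myl2, Atcayos, Nr1d1, Nr1d2, Hlf, Afmid, Gpd1l, Gpd2, Sirt1, Parp1, Parp3, Parp4, Cd38, Art1, Art5, H6pd, Actc1, Tnnt2, Pln, Mybpc3, Ttn, Myl4, Sln, Cdh5, Tie1, Col1a2, Pdgfra and genes overlapping members were named after their values were seen. Figures were made with Python 3.11.15 and matplotlib 3.10.9.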

Additional observations from a re-analysis of the deposited data

Results flagged for a closer look

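In 4 genes of the pathway and marker lists the change in CUG960 mice differed between chambers by the interaction test over all 12 libraries in edgeR. Groups of 3 are too small for the rule on single outlying samples, which was not applied.

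Mthfd2, a mitochondrial folate enzyme, had a log2 fold change of −0.43 in atria and 0.95 in ventricles, a difference of 1.38 ± 0.27 (SE, adjusted P = 0.0293 in edgeR). Aox1, aldehyde oxidase, had −0.06 in atria and −0.65 in ventricles, a difference of −0.59 ± 0.13 (SE, adjusted P = 0.0457 in edgeR). Art5, of the ADP-ribosyltransferase family, had 0.41 in atria and −0.44 in ventricles, a difference of −0.84 ± 0.19 (SE, adjusted P = 0.0494 in edgeR). Levels of Art5 were between 6.76 and 9.45 CPM in control atria and between 10.0 and 12.5 CPM in CUG960 atria, and between 12.4 and 15.8 CPM and between 9.88 and 10.9 CPM in the ventricles, so the genotypes lay in opposite order in the 2 chambers. Nppa, which encodes the atrial natriuretic peptide and stood among the atrial markers, had a log2 fold change of −0.42 in atria, and its ventricular value was larger by a difference of 1.72 ± 0.38 (SE, adjusted P = 0.0494 in edgeR). Its level was between 14626 and 16580 CPM in control atria and between 11400 and 12380 CPM in CUG960 atria, and between 48.6 and 84.8 CPM and between 86.6 and 224 CPM in the ventricles. The 4 atrial markers summed to 75.2, 74.9 and 150 CPM in ventricles of V327, V333 and V334, and to 91.3, 231 and 312 CPM in V119, V120 and V123. The others of the 4 did not pass in ventricles, with log2 fold changes of 0.80 for Myl7, 0.56 for Myl4 and 0.47 for Sln. The adjusted values of Aox1, Art5 and Nppa are close to 0.05. Interactions of chamber and genotype were called for 253 of 18327 genes.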

How the results depend on the processing

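Counts here are over all 9 genes in ventricles and over the 8 genes other than Nmrk2 elsewhere. Without a fold limit 3 members were called in atria and 5 between chambers in CUG960 mice. At a log2 fold change of at least 1.5, 0 were called in ventricles, 0 between chambers in control mice and 1 (Nnt) in CUG960 mice. DESeq2 called 2 members for the interaction. Without a filter on low counts 2 members were called in ventricles, Naprt and Nmrk2, the latter at a log2 fold change of −1.37 beside −1.38 with the filter (adjusted P = 0.0153 in edgeR), and the cause was not tested. Over the alternatives the adjusted P of Nmrk2 in ventricles otherwise lay between 0.0951 and 0.666.

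Leaving out 1 mouse at a time gave between 0 and 1 called members in ventricles, 0 and 0 in atria and for the interaction, between 5 and 6 between chambers in control mice and 3 in CUG960 mice. The log2 fold change of Nmrk2 in ventricles lay between −1.77 and −0.32, and the log2 ratio of Nmrk2 to Nmrk1 differed by between −1.57 and −0.43.

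With each mouse left out in turn, values near 0 changed sign. Naprt in atria lay between −0.056 and 0.065 (negative without V119 or V334), Nmnat1 in ventricles between −0.19 and 0.0031 (positive without V327), Nnt in ventricles between −0.090 and 0.13 (negative without V119, V123 or V327) and Nadk in the interaction between −0.012 and 0.17 (negative without V333). With the mouse as a replicate block, 5 members were called between chambers in control mice, 3 in CUG960 mice and 0 for the interaction, so the block changed no count over these 8 genes. For Nmrk2, given without a test, the block moved the log2 difference between chambers from −1.97 ± 0.60 to −2.18 ± 0.19 in control mice, from −0.62 ± 0.33 to −0.67 ± 0.22 in CUG960 mice, and the interaction from 1.34 ± 0.77 to 1.52 ± 0.32 (SE), so its errors were smaller. The spread between mice was below the counting error for Nmrk1 in 2 of 4 groups and for Nmnat1 in 1, so depth limits those values too.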
